A study of Glycine max with 46 samples.

Results

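Phytic acid (inositol hexakisphosphate) is the main store of phosphorus in seeds, and 3 soybean (Glycine max) genes listed under its synthesis and storage were followed through seed drying and germination. The genes were given by ID: Glyma11g07530, listed as the myo-inositol phosphate synthase MIPS1, and Glyma03g32500 and Glyma19g35230, listed as the low-phytic-acid transporter genes on chromosomes 3 and 19. All 3 were present among the 54175 genes of the deposited table, and all 3 passed the filter on low values. Seeds of the cultivar Williams 82, grown at 22 °C with 16 h of light a day, were sampled at 7 stages with 3 biological replicates each. The stages were early, mid and late desiccation, which are the drying phases at the end of seed maturation, dry seed, and 3, 16 and 27 h after imbibition, the uptake of water that starts germination. No stage carried a mutation, transgene or chemical treatment in the labels. The labels name whole seed as the tissue and embryos in the extraction protocol. No cell types were separated, so fewer cells of a type and less RNA per cell cannot be told apart.

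Phytic acid is built on myo-inositol. Its ring is made from glucose phosphate by myo-inositol phosphate synthase, the enzyme that commits carbon to the pathway, and kinases then add the phosphates. The finished compound is moved into the protein storage vacuole by a transporter of the ABC family (the MRP or ABCC type), and soybean lines with mutations in both low-phytic-acid transporter genes have seeds with little phytic acid. After germination starts, phytases release the phosphate and the inositol for the seedling.

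The gene names could be checked only in part. None of the table's IDs matched the RefSeq gene table of assembly Glycine_max_v4.0 (0 of 54175), so no other gene of the pathway could be named and no sequence is shown. RefSeq gives the synonym MIPS1 to 1 gene, on chromosome 11. By start position that gene is number 2664 of the 2852 genes RefSeq places on the chromosome, 93.4% of the way along it. Glyma11g07530 is number 690 of the 2620 chromosome 11 IDs in the table, 26.3% of the way along in ID order. These places go against the name, although the build behind the table is not given and gene order can differ between assemblies. The gene is therefore called by its ID below, and its values are not read as those of the synthase. No entry was matched that would check the names of the transporter genes, which stand as listed.

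Values are normalized counts, which are reads divided by the size factor of the library, as deposited. Replicates held 43.82 to 86.52 M reads, except late desiccation replicate 3, of which 1 run with 2.53 M reads was usable. Counts of called genes depended on replicate 3 of early desiccation and on replicate 3 of late desiccation. Without the first, limma called 9027 genes between early and mid desiccation, against 23 with all libraries. Without the second, it called 832 between mid and late desiccation, against 292. Without both, it called 16903 genes between early and mid desiccation. Calls of the 3 genes between drying stages that change without both libraries are given both ways. The summed normalized counts of all genes differed between stages and were lowest at 27 h, so levels in RPM (reads per 1 M reads counted to genes) are given where they change the picture. A gene was called changed at an adjusted p under 0.05 (limma, Benjamini-Hochberg over all 46537 genes tested) together with a 2-fold or larger change on the log2(value + 1) scale. Nothing in the labels says that the replicates came from separate plants, and the p-values measure the spread between these samples.

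**Figure D1:**
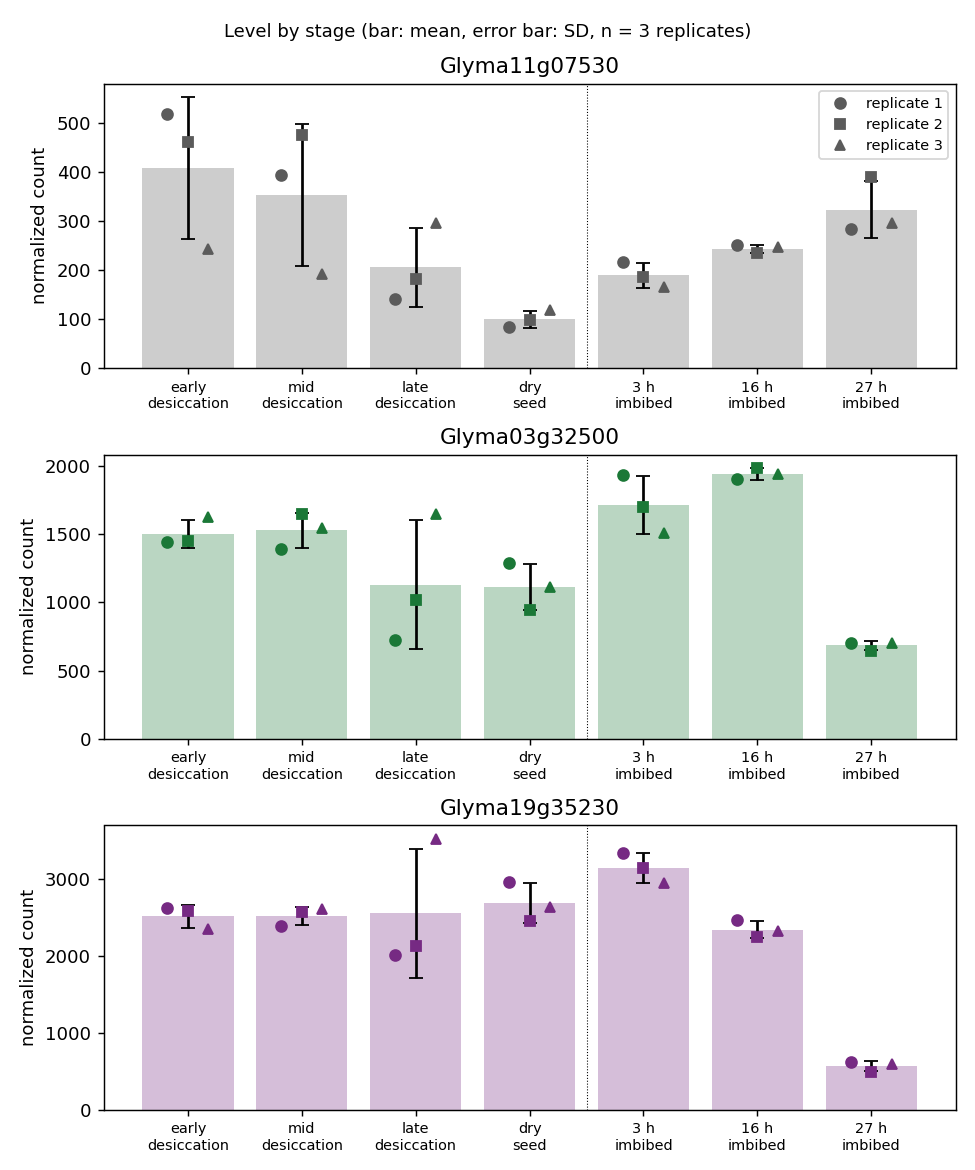
Normalized counts of Glyma11g07530 (top), Glyma03g32500 (middle) and Glyma19g35230 (bottom) by stage. Bars are stage means, error bars SD over 3 replicates, and symbols the replicates; the dotted line marks imbibition. Glyma11g07530 was lowest in dry seed (83.5 to 118), and both transporter genes were lowest at 27 h (647 to 706 and 495 to 614).

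The transporter genes were abundant through drying and the first 16 h of imbibition, and both fell steeply between 16 h and 27 h. By normalized counts Glyma19g35230, the copy on chromosome 19, decreased 4.13-fold in that step and Glyma03g32500, the copy on chromosome 3, 2.83-fold. In RPM the falls were smaller, 3.365-fold and 2.346-fold. Glyma11g07530 ran another course: it decreased 4.09-fold from early desiccation to dry seed and then increased 3.24-fold from dry seed to 27 h. Across the 7 stages all 3 genes were called changed (limma F test, adjusted p = 1.05e-09 for Glyma19g35230, 3.11e-05 for Glyma03g32500 and 0.000285 for Glyma11g07530), against 37.5% of all genes tested.

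Glyma19g35230 stayed near the same level while the seed dried. Its early desiccation replicates held 2618, 2582 and 2341 normalized counts (mean 2514 ± 150 SD, n = 3). Those of mid desiccation held 2384, 2570 and 2604 (2520 ± 118), all within the early range. Dry seed stood at 2961, 2455 and 2636 (2684 ± 257). Late desiccation was the stage with the widest spread, at 2010, 2123 and 3516 (2550 ± 838). The high value there is that of replicate 3, which rests on 405 reads; its 95% Poisson interval of 3181 to 3875, for counting error only, lies above the other replicates of that stage. From early desiccation to dry seed its log2 change was 0.09 ± 0.17 SE (limma adjusted p = 0.852).

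After water uptake Glyma19g35230 first stood at its highest stage mean. At 3 h the replicates held 3340, 3141 and 2941 normalized counts (3141 ± 199, n = 3), and the range overlapped that of dry seed. The step from dry seed to 3 h gave a log2 change of 0.23 ± 0.17 SE (limma adjusted p = 0.611). At 16 h they held 2462, 2240 and 2316 (2339 ± 112), all below the lowest 3 h replicate. This step, a log2 change of -0.42 ± 0.17 SE, was not called (limma adjusted p = 0.114). Without the third replicates of early and late desiccation its limma adjusted p was 0.0106, with the change still short of 2-fold. In RPM the levels were 170 at 3 h and 169 at 16 h. At 27 h only 614, 495 and 590 remained (566 ± 63.1), far below every replicate of every other stage. The fall from 16 h was -2.05 ± 0.17 on the log2 scale (limma adjusted p = 6.56e-09), and that from dry seed -2.24 ± 0.17 (limma adjusted p = 4.65e-10). In RPM the mean was 140 ± 9.32 in dry seed and 50.3 ± 6.29 at 27 h, 2.78-fold lower, against 4.74-fold lower in normalized counts.

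In the order of its stage means, Glyma19g35230 ran from 3 h through dry seed, late, mid and early desiccation and 16 h down to 27 h. Replicate ranges of neighbours in this order overlapped down to 16 h. By normalized counts the 3 h range lay wholly above those of early desiccation, mid desiccation and 16 h. In RPM the 3 h range (158 to 180) overlapped that of 16 h (164 to 173). Between 16 h and 27 h the ranges did not overlap. Among all genes of the table its mean ranked 778th at 3 h and 4648th at 27 h.

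Glyma03g32500 moved more than its partner before 16 h. In early desiccation its replicates held 1441, 1451 and 1624 normalized counts (1505 ± 103, n = 3), and in mid desiccation 1393, 1649 and 1548 (1530 ± 129). The mid desiccation range encloses the early one. In late desiccation they spread from 723 and 1020 to 1649 (1131 ± 473), the last again replicate 3, with 190 reads. The step from mid to late desiccation had a log2 change of -0.52 ± 0.20 SE (limma adjusted p = 0.310). Without the third replicates of early and late desiccation this step was -0.83 (limma adjusted p = 0.00275), short of 2-fold. Dry seed held 1286, 947 and 1113 (1115 ± 170), all below the lowest early and mid desiccation replicates. From early desiccation to dry seed the log2 change was -0.44 ± 0.20 SE, which was not called (limma adjusted p = 0.185). Its size depends on the scale: it was -0.13 with TMM scaling (limma adjusted p = 0.810), -0.12 with edgeR and -0.45 with DESeq2.

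With imbibition the values of Glyma03g32500 were higher again. At 3 h it held 1938, 1698 and 1513 normalized counts (1716 ± 213, n = 3), above all dry seed replicates. The log2 change of 0.62 ± 0.20 SE did not pass the threshold (limma adjusted p = 0.0714). Without the third replicates of early and late desiccation its limma adjusted p was 0.0048, with the change still short of 2-fold. The 16 h replicates agreed closely at 1902, 1985 and 1939 (1942 ± 41.8), the highest stage mean of this gene. At 27 h it held 706, 647 and 706 (686 ± 34.4), below every replicate of the other stages. The log2 change from 16 h to 27 h was -1.50 ± 0.20 SE (limma adjusted p = 7.23e-06). From dry seed to 27 h it was -0.69 ± 0.20 SE (limma adjusted p = 0.00866), short of 2-fold and so not called. This last direction depends on the scale. In RPM the means were 58.6 ± 6.49 in dry seed and 61.0 ± 3.59 at 27 h, and with TMM scaling the log2 change was -0.56 (limma adjusted p = 0.0634).

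The order of stage means of Glyma03g32500 was 16 h, 3 h, mid, early and late desiccation, dry seed and 27 h. By normalized counts all neighbours in it overlapped except dry seed and 27 h. In RPM the 3 h replicates (87.7 to 105) lay below those of 16 h (137 to 152). Those of dry seed (52.1 to 65.0) and 27 h (56.9 to 63.6) overlapped in RPM. Its rank among all genes went from 1020th at 16 h to 3606th at 27 h.

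**Figure D2:**
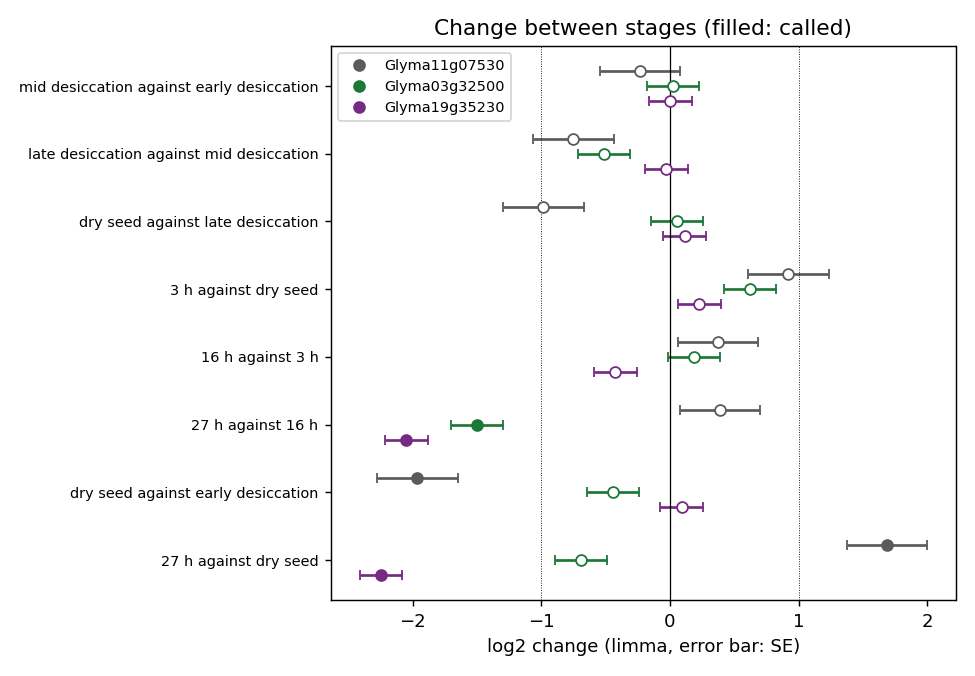
Log2 change of each gene between stages (x axis; limma on log2(normalized count + 1), error bars SE) for the 6 successive steps, for dry seed against early desiccation and for 27 h against dry seed. Filled points were called (adjusted p under 0.05 and at least 2-fold, dotted lines); these are both transporter genes for 27 h against 16 h, Glyma11g07530 for dry seed against early desiccation, and Glyma11g07530 (up) and Glyma19g35230 (down) for 27 h against dry seed.

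The balance between the transporter genes shifted in 1 direction during drying and in the other after imbibition. Glyma03g32500 supplied 35.5%, 36.0% and 41.0% of the pair's summed normalized counts in the early desiccation replicates (37.5% ± 3.02, n = 3). The mid desiccation mean was 37.7% ± 1.18. In late desiccation the gene supplied 26.5%, 32.5% and 31.9% (30.3% ± 3.32), already below every early and mid desiccation replicate. In dry seed it supplied 30.3%, 27.8% and 29.7% (29.3% ± 1.28), also below every early and mid desiccation replicate. The late desiccation and dry seed ranges overlapped. Its share was 36.7%, 35.1% and 34.0% at 3 h (35.3% ± 1.38), again above every dry seed replicate. At 16 h it reached 43.6%, 47.0% and 45.6% (45.4% ± 1.71). By 27 h it was 53.5%, 56.7% and 54.5% (54.9% ± 1.62), so that the chromosome 3 copy held the larger part of the reads at that stage alone. From dry seed to 27 h the 4 stages did not overlap in this share. The summed level of the pair went from 3799 ± 425 normalized counts in dry seed to 4857 ± 412 at 3 h, then stood at 4282 ± 72.6 (16 h) and 1253 ± 97.0 (27 h). The step from 3 h to 16 h depends on the scale. In RPM Glyma03g32500 went from 94.5 at 3 h to 143 at 16 h, and Glyma19g35230 stood at 170 and 169. On that scale the pair did not fall between these stages.

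**Figure D3:**
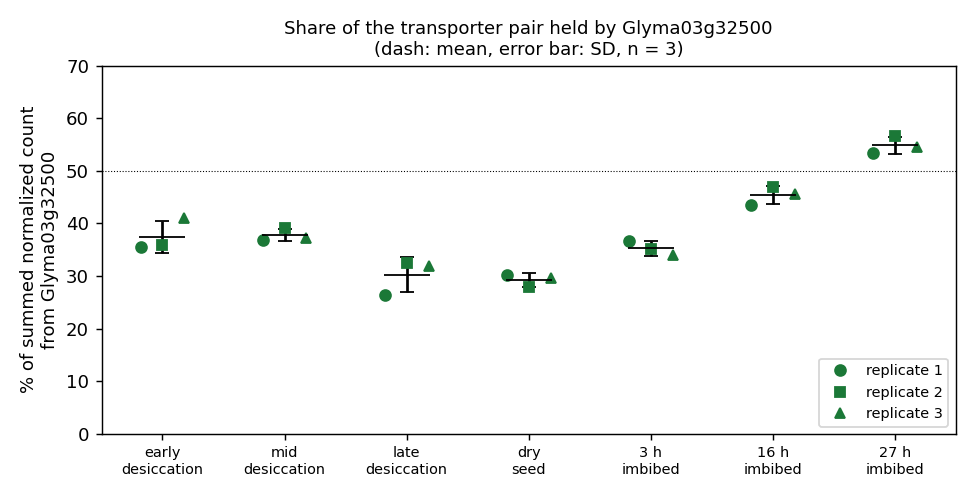
Share of the transporter pair's summed normalized counts that came from Glyma03g32500 (y axis, percent) by stage. Symbols are replicates, dashes means, error bars SD (n = 3), and the dotted line marks equal shares; the mean was lowest in dry seed (29.3%) and highest at 27 h (54.9%).

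This share does not depend on how libraries were scaled. The log2 ratio of Glyma19g35230 to Glyma03g32500 was 0.74 ± 0.18 in early desiccation, 0.72 ± 0.07 in mid desiccation, 1.21 ± 0.23 in late desiccation and 1.27 ± 0.09 in dry seed (SD, n = 3). It then was 0.88 ± 0.09 at 3 h, 0.27 ± 0.10 at 16 h and -0.28 ± 0.09 at 27 h. An exact permutation test of the differences among stages was added after these values were seen. Over the 12 replicates from dry seed to 27 h the exact p was 6.49e-05, the smallest p that its 369600 arrangements allow (adjusted p = 0.00013 over 2 tests), and the ratio changed by -1.56 ± 0.08 SE on the log2 scale. Over the 12 replicates from early desiccation to dry seed it gave p = 0.00669 (exact permutation test, adjusted p = 0.00669), with a change of 0.53 ± 0.12 SE. Without the third replicates of early and late desiccation that change was 0.43 (exact permutation test, adjusted p = 0.0129). Gene lengths are not in the files, so the share compares reads between stages and not transcript numbers between the copies. Where copies are alike in sequence, reads can be split between them in counting, and how reads with several matches were treated is not given in the sources used here.

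Glyma11g07530 was the least abundant of the 3 by reads, and its SD was largest in early and mid desiccation. Relative to the mean, late desiccation spread about as widely. The SD was 35.6%, 41.1% and 39.1% of the mean in early, mid and late desiccation. In early desiccation its replicates held 517, 461 and 243 normalized counts (407 ± 145, n = 3), and in mid desiccation 393, 474 and 192 (353 ± 145). Replicate 3 lay lowest at both stages. In late desiccation the replicates held 140, 181 and 295 (205 ± 80.4), and here replicate 3 was the highest, from 34 reads with a 95% Poisson interval of 204 to 412. Dry seed fell below all of them, with 83.5, 97.3 and 118 (99.5 ± 17.2). The log2 change from early desiccation to dry seed was -1.96 ± 0.31 SE (limma adjusted p = 0.000196). The single steps from mid to late desiccation (-0.75 ± 0.31 SE, limma adjusted p = 0.365) and from late desiccation to dry seed (-0.98 ± 0.31 SE, limma adjusted p = 0.0540) were not called. The first of these was called when the third replicates of early and late desiccation were left out (-1.04, limma adjusted p = 0.0250). The second was called when late desiccation replicate 1 was left out (-1.22, limma adjusted p = 0.0337). With run 1 alone the second step was also called (-1.19, limma adjusted p = 0.0104). It was larger but uncalled without dry seed replicate 3 (-1.11, limma adjusted p = 0.0673). The same held without late desiccation replicate 2 (-1.04, limma adjusted p = 0.0926). Some other alternatives made the second step smaller and left it uncalled. It was -0.50 with TMM scaling (limma adjusted p = 0.543) and -0.44 with edgeR (edgeR adjusted p = 0.686). Without the third replicates of early and late desiccation it was -0.69 (limma adjusted p = 0.0580).

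After imbibition each stage mean of Glyma11g07530 lay above the one before it. It held 216, 185 and 165 normalized counts at 3 h (189 ± 25.9, n = 3) and 250, 234 and 246 at 16 h (243 ± 8.18). At 27 h the replicates held 283, 389 and 296 (323 ± 58.2). None of these 4 stages, from dry seed to 27 h, overlapped another. No single step passed the threshold: the log2 changes were 0.92 ± 0.31 SE to 3 h (limma adjusted p = 0.0899), 0.37 ± 0.31 SE to 16 h (limma adjusted p = 0.484) and 0.39 ± 0.31 SE to 27 h (limma adjusted p = 0.465). Without the third replicates of early and late desiccation, the step to 3 h had a limma adjusted p of 0.0135. Only the 2-fold rule kept it uncalled there. The steps to 16 h and 27 h then had limma adjusted p of 0.248 and 0.229. From dry seed to 27 h the log2 change was 1.69 ± 0.31 SE (limma adjusted p = 0.000138). In RPM the mean went from 5.29 ± 1.10 to 27.0 ± 3.75, 5.12-fold higher, and the 27 h mean was then the highest of all stages, above the 20.7 ± 5.37 of early desiccation.

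By normalized counts the order of its stage means was early and mid desiccation, 27 h, 16 h, late desiccation, 3 h and dry seed. Neighbours overlapped except 27 h with 16 h, and 3 h with dry seed. Its rank among all genes went from 7250th in early desiccation to 14834th in dry seed and 8611th at 27 h.

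The sequencing runs of a replicate gave different values for Glyma11g07530. Run 1 was higher than run 2 in 18 of the 20 replicates with at least 2 usable runs, by 1.22-fold on average and by at most 1.65-fold. Its mean log2 difference of 0.29 ± 0.26 (SD, n = 20) lay above that of 95.5% of the 16768 genes whose mean reached 100 normalized counts. Of these genes, 8.17% had one run higher in as many replicates. Glyma03g32500 showed no such difference (run 1 higher in 8 of 20, mean log2 difference -0.02 ± 0.11), and that of Glyma19g35230 was 0.07 ± 0.15, with run 1 higher in 17 of 20. In dry seed run 1 of Glyma11g07530 was not uniformly higher; it held 82.7, 80.8 and 115 normalized counts and run 2 held 84.2, 100.1 and 111. At 27 h run 1 held 319, 447 and 376 and run 2 246, 332 and 229. With run 1 alone the log2 change from dry seed to 27 h was 2.03 (limma adjusted p = 2.82e-06), and the steps from late desiccation to dry seed (-1.19, limma adjusted p = 0.0104) and from dry seed to 3 h (1.16, limma adjusted p = 0.0128) were called as well. The part that the run plays in these changes was not tested.

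**Figure D4:**
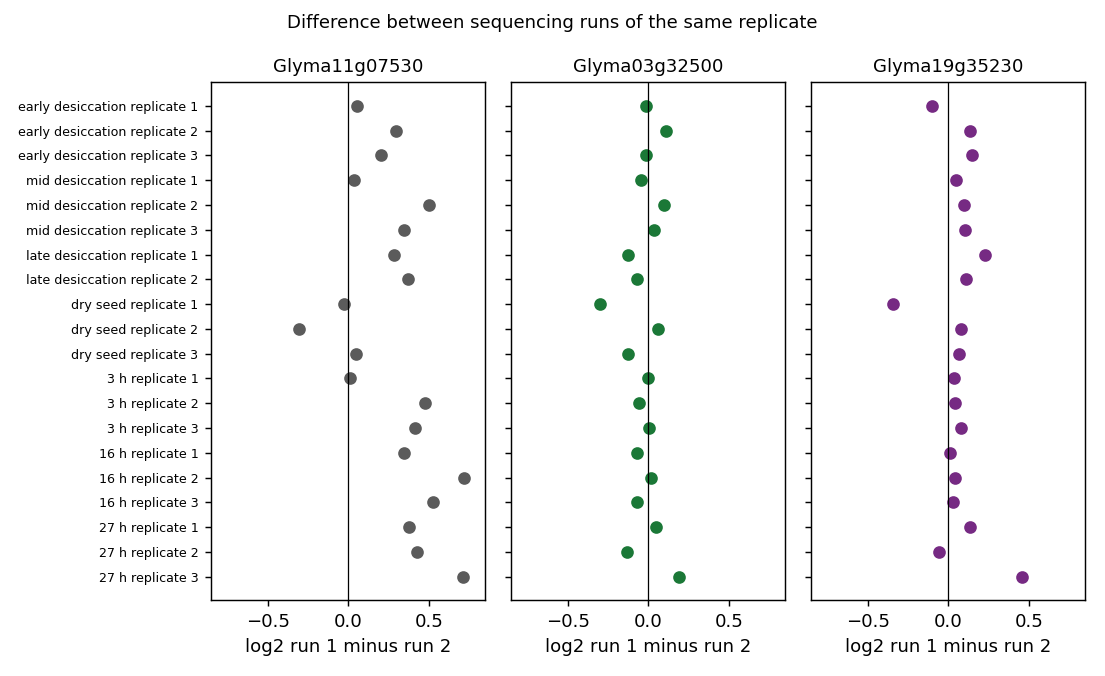
Log2 difference between sequencing run 1 and run 2 (x axis, log2(normalized count + 1)) for each replicate with at least 2 usable runs (y axis) and each gene. Points right of 0 had the higher value in run 1, which was so in 18 of 20 replicates for Glyma11g07530, 8 of 20 for Glyma03g32500 and 17 of 20 for Glyma19g35230.

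Set against all genes, the calls fell where many genes were called. For 27 h against 16 h limma called 2 of the 3 genes, both as falls, where 14.8% of all genes were called. For 27 h against dry seed it called 2 of 3, 1 in each direction, against 32.2% of all genes. For dry seed against early desiccation it called 1 of 3, a fall, against 7.61%. The other steps gave 0 of 3 by limma, edgeR and DESeq2. In them the share of all genes called was 0.0494% from early to mid desiccation and 0.627% from mid to late. It was 4.04% from late desiccation to dry seed, 3.4% from there to 3 h and 7.04% from 3 h to 16 h. At an unadjusted p under 0.05 limma gave 0, 2, 1, 2 and 1 of the 3 genes in these 5 steps. The share of all genes at that looser threshold was not computed. These counts therefore cannot be set against the shares above and are not read as a result.

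The stages were also grouped as 4 before and 3 after imbibition, a comparison with little power: a single value at the smallest possible p would not pass after adjustment over its 6 tests, so the p-values do not show that the groups are alike. An exact permutation test on stage means (35 arrangements, two-sided, smallest p possible 0.0286) gave p = 0.857 for Glyma11g07530, with a difference of 0.13 on the log2 scale, after minus before. For Glyma03g32500 the difference was 0.04 (exact p = 1) and for Glyma19g35230 -0.66 (exact p = 0.4). The ratio of Glyma19g35230 to Glyma03g32500 differed by -0.70 (exact p = 0.114), that of Glyma19g35230 to Glyma11g07530 by -0.79 (exact p = 0.514) and that of Glyma03g32500 to Glyma11g07530 by -0.10 (exact p = 0.886). The adjusted p over these 6 tests was 0.686 for the first of the ratios and 1 for the others. In both transporter genes the 27 h replicates lay below all those of 3 h and 16 h, which are in the same group here.

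Genes with the most similar course were sought among 16765 other genes whose mean reached 100 normalized counts, by Pearson's r of log2(value + 1) over the 21 replicates. These correlations describe profiles over shared libraries, and the files do not pair the IDs with names. Glyma19g35230 was closest to Glyma17g29272 (r = 0.989) and Glyma02g37910 (r = 0.988), and 1393 genes exceeded 0.9. Glyma02g37910 went from a mean of 9759 in dry seed to 12440 at 3 h, then stood at 6703 (16 h) and 774 (27 h). For Glyma03g32500 the closest were Glyma06g05550 (r = 0.967) and Glyma18g49600 (r = 0.959), and 17 genes exceeded 0.9. Glyma06g05550 went from a mean of 396 in dry seed to 675 at 3 h, then stood at 689 (16 h) and 194 (27 h). Glyma11g07530 was closest to Glyma17g13640 (r = 0.922) and Glyma02g40530 (r = 0.918), and 6 genes exceeded 0.9. Glyma02g40530 had means of 719 in early desiccation, 218 in dry seed and 756 at 27 h. Between the 3 genes themselves r was 0.773 for the transporter pair, 0.116 for Glyma11g07530 with Glyma03g32500 and -0.266 for Glyma11g07530 with Glyma19g35230.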

How the data were processed

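RNA was sequenced as Illumina cDNA libraries. The submitters' processing notes name Trimmomatic 0.38 and HISAT2. No source used here gives the counting tool, build, annotation or use of strand, so reads of overlapping or antisense genes may be mixed. The deposited signal values are read counts that the authors divided by a size factor per library, as the table's name says. Values were whole multiples of 1 read in 100% of cases (tolerance 0.001 reads), 1 read being worth 0.173 to 8.95. Of 46 samples 45 had a column; 1 column matched no label and was not used.

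Runs were averaged per replicate. A gene entered the test if 3 or more replicates reached 10 normalized counts. The 7 stages shared 1 fit of log2(value + 1) in limma 3.58.1 (R 4.3.3), with robust moderation and a variance trend. The fit was tested on simulated data, with all stages at dry seed levels and genes changed only at 27 h. Those data had the same spread setting for all genes and no deviating library. They do not show how the fit handles the drying stages. The genes and the gene list for the pathway were chosen with earlier results of these data known; genes of similar course are the 2 with the highest r per gene. Alternatives used edgeR 4.0.16 and DESeq2 1.42.0 on recovered reads summed over runs. Exact permutation tests used Python 3.11.15. Same-numbered replicates of early and mid desiccation deviated together (r = 0.373, 0.104 and 0.550 over genes whose mean reached 100). In the other 7 comparisons at least 1 of 3 pairs was at or under 0.1. The median log2 change of all genes shifted under TMM scaling by 0.28 from early to mid desiccation, by -0.32 from mid to late, by 0.31 from late to dry seed, by 0.29 from early desiccation to dry seed and by 0.10 from dry seed to 27 h.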

Additional observations from a re-analysis of the deposited data

How the results depend on the processing

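The 5 calls between stages, the 3 across all stages and both exact tests of the transporter ratio kept their direction and their side of the threshold under every alternative run for them. With the replicate number as a block no call changed: the log2 changes were -2.05 and -1.50 for the transporter genes from 16 h to 27 h, and 1.69 for Glyma11g07530 from dry seed to 27 h. Calls were gained for Glyma11g07530 with run 1 alone, at 1.16 for 3 h and -1.19 for dry seed against the stage before. Without the third replicates of early and late desiccation, its change from mid to late desiccation was -1.04. Signs turned only in uncalled values. These were, with run 1 alone, -0.046 and -0.059 for Glyma03g32500 and Glyma19g35230 from late desiccation to dry seed, and -0.048 for the latter from early desiccation. From early to mid desiccation they were -0.044 and -0.085 for the same genes with DESeq2, and -0.046 for Glyma19g35230 without that pair of libraries, where the ratio of Glyma03g32500 to Glyma11g07530 differed by 0.0060 after imbibition.

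Leaving out 1 replicate at a time, the change from late desiccation to dry seed ranged from -0.23 to 0.37 for Glyma03g32500, from -1.22 to -0.69 for Glyma11g07530 and from -0.030 to 0.37 for Glyma19g35230. From early to mid desiccation the ranges were -0.034 to 0.088, -0.57 to 0.16 and -0.046 to 0.043 for the same genes in that order, and from mid to late desiccation -0.29 to 0.12 for Glyma19g35230. The difference between the stages before and after imbibition ranged from -0.035 to 0.11 for Glyma03g32500 and from -0.16 to 0.0032 for its ratio to Glyma11g07530. The cause of these shifts was not tested. Depth limits late desiccation most, since its replicate 3 holds 34 reads of Glyma11g07530.

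Counts of all genes called varied more, from 3 (without mid desiccation replicate 1) to 16903 (without that pair) for mid against early desiccation, where 23 genes were called with all libraries.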
